A study of Mus musculus with 9 samples.

Results

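The 10 genes described here mark hepatic stellate cells in 2 states. Lrat, Reln, Hand2 and Cygb are known from the resting cell and are called quiescence genes below, and Acta2, Tagln, Des and Pdgfrb, which rise or are read as markers when the cell becomes contractile, are called activation genes. Pdgfra and Dcn, which mark liver mesenchyme more broadly, belong to neither set. The genes were chosen by name, as known stellate cell genes, with earlier results of these data known. Their rows were taken from each library's counts. All 10 were found among the 24421 gene symbols of the count tables and passed the filter on low counts. Whole liver RNA was sequenced from 5-week-old C57BL/6J mice, with 5 libraries from wild-type control littermates (WT) and 4 from mice in which OGT had been deleted (OGT-deficient), as many libraries as the design text gives mice. OGT is O-GlcNAc transferase, which adds a single sugar to many nuclear and cytoplasmic proteins. Mice of both sexes were used and had been fasted for 6 h. The labels name the tissue OGT-deficient liver but do not say which promoter, Cre line or allele removed the gene, nor in which liver cells it was lost.

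Stellate cells lie between hepatocytes and the sinusoidal endothelium and store vitamin A as retinyl esters, which the enzyme encoded by Lrat makes. After liver injury they can lose their retinoid stores, take on a myofibroblast form with smooth muscle actin, divide in response to platelet-derived growth factor (PDGF) and secrete collagen. A quiescent-to-activated shift is therefore usually read from a gain of contractile and PDGF receptor transcripts together with a loss of retinoid and other resting-cell transcripts.

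Gene counts were 32337861 to 54130901 per library. Values are given as CPM, the usual count scaled to a common library total, with library sizes adjusted by TMM (trimmed mean of M-values). On this scale 3 counts corresponded to 0.0572 to 0.104 CPM. Ogt itself was 51.1 to 73.1 CPM in controls and 14.3 to 20.6 CPM in the OGT-deficient group (log2 change -1.86, standard error 0.14). By edgeR's quasi-likelihood test, 61.1% of 14104 tested genes differed at an adjusted p below 0.05, and 31.6% of the tested genes were higher and 29.4% lower in OGT-deficient liver. With upper-quartile scaling 62.5% of the called genes were higher, in place of 51.8%. Alignments that were not unique numbered 16167401 to 35276937 per WT library and 7997176 to 9317390 per OGT-deficient library, and their part in the results was not tested.

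Of the 10 genes, 9 rose and 0 fell in OGT-deficient liver, against the 31.6% of all tested genes that were called higher. The 4 OGT-deficient values lay above all 5 WT values for the same 9 genes, which was so for 26.2% of all tested genes (51.3% did not overlap in either direction). The median log2 change of the 10 genes was 1.07, and that of all tested genes 0.02. All 4 activation genes rose, with a median log2 change of 1.53. Of the 4 quiescence genes 3 rose, with a median over the 4 of 0.66, and Lrat did not pass the test. In whole tissue, more or fewer cells of a type and more or less RNA per cell cannot be told apart.

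**Figure D1:**
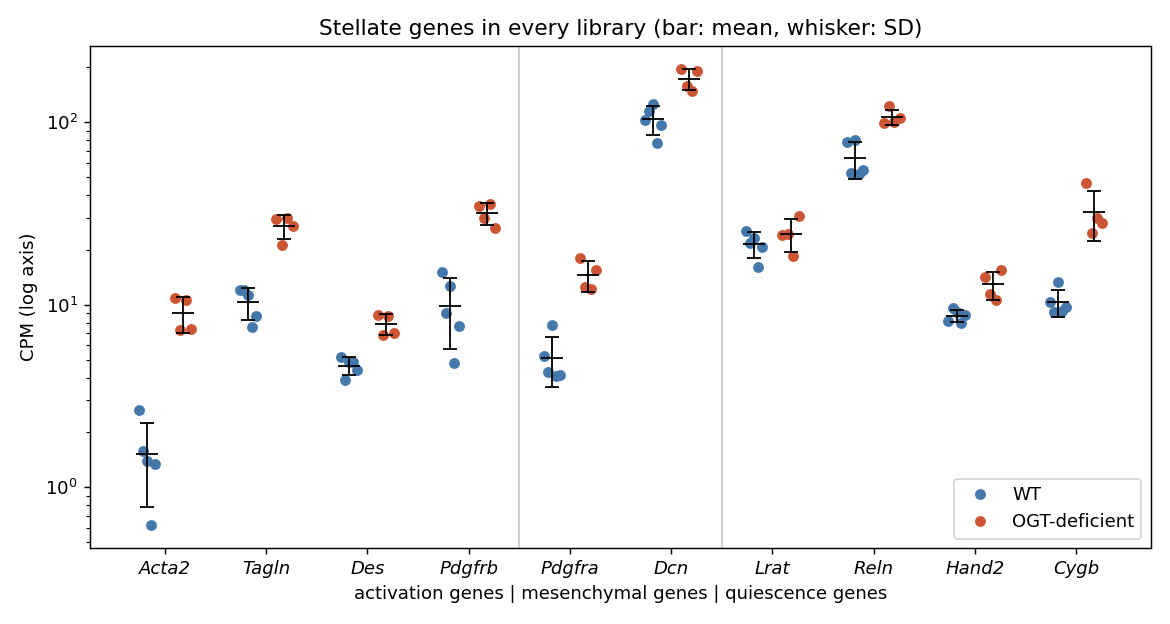
CPM of the 10 genes (log axis) in each WT library (blue) and each OGT-deficient library (orange), with the group mean and SD. The groups are separate for all genes except Lrat, whose WT values of 16.02 to 25.3 CPM overlap the OGT-deficient values of 18.6 to 30.7 CPM.

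Acta2 encodes alpha smooth muscle actin, the filament protein by which myofibroblasts are usually recognised, and had the largest fold change of the 10. It measured 2.67, 1.58, 1.40, 0.624 and 1.34 CPM in the controls WT 1 to 5. OGT-deficient 1 to 4 had 10.9, 7.26, 10.6 and 7.34 CPM. Every OGT-deficient library was above WT 1, the highest control, and WT 4 was the lowest with 18 counts. The mean went from 1.52 ± 0.737 CPM (SD, n = 5) in controls to 9.01 ± 1.98 CPM (SD, n = 4), a 5.78-fold rise (95% interval 3.75 to 8.93, log2 fold change 2.53, standard error 0.29 and adjusted p = 1.02e-05 by the quasi-likelihood test of edgeR). The gene lies on the minus strand of chromosome 19 (34241090 to 34255590, GRCm38). Actin proteins are nearly identical to each other, while 0.353% of the 50-base stretches of the longest Acta2 transcript occur in another listed gene, mainly Actg1. The cytoplasmic actin genes Actb and Actg1 were themselves higher (log2 fold changes 0.94 and 0.79). The striated muscle actin gene Acta1 had 0 to 2 counts in every library, and the enteric smooth muscle actin gene Actg2 did not exceed 0.379 CPM. Actc1, also a striated muscle actin gene, had 1 to 6 counts per WT library and 10 to 24 per OGT-deficient library. Its means were 0.0962 and 0.388 CPM, too low to be tested.

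The sequence before the Acta2 start is shown with that of Lrat, the gene of the 10 that did not pass the test, because serum response factor (SRF) is known to drive smooth muscle actin through CArG boxes. In the RefSeq promoter table (GRCm38.p6) 6 of the 10 genes were matched, not Tagln, Pdgfrb, Cygb or Dcn, and the 250 bases before the start were searched on both strands. The motifs were the CArG box, with up to 1 base of its A/T core replaced, and the MCAT motif CATTCC, which TEAD factors bind. Capitals mark the matches, on chr19:34255374-34255623 (minus strand) for Acta2 and chr3:82903975-82904224 (minus strand) for Lrat.
Acta2: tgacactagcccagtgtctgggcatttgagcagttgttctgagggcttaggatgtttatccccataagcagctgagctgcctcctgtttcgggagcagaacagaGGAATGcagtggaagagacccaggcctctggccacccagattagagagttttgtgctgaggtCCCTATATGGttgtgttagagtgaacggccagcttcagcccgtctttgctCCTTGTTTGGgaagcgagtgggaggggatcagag
Lrat: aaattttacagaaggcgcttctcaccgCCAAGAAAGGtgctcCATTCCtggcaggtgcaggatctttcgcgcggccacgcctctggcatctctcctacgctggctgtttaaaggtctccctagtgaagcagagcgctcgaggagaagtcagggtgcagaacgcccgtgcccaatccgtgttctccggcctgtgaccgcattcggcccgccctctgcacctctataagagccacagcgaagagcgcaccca
Acta2 held 2 such CArG boxes, beginning 84 and 34 bases before the start, and 1 MCAT motif 146 bases before it. The RefSeq start of Acta2 lies inside the GENCODE gene given above, and these 3 matches lie within that gene's span. Lrat held 1 of each, 223 and 208 bases before the start. Of 32851 RefSeq promoters 8.59% held such a CArG box and 12.6% the MCAT motif, while a CArG box with an intact core, found in 1.47%, was in none of the 6. Reln, Hand2, Des and Pdgfra had no match to either motif in this window.

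Tagln (chromosome 9, 45929619 to 45936058, minus strand) encodes transgelin, an actin-binding protein of smooth muscle and myofibroblasts. It measured 12.01, 12.03, 11.4, 7.56 and 8.70 CPM in the WT libraries and 29.7, 21.3, 29.8 and 27.2 CPM in the OGT-deficient libraries. The lowest OGT-deficient value, in library 2, was well above the highest control value. The rise was 2.60-fold (95% interval 2.08 to 3.26, log2 fold change 1.38, standard error 0.15 and adjusted p = 6.50e-06).

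Des (chromosome 1, 75360329 to 75368579, plus strand) encodes desmin, an intermediate filament protein that rodent stellate cells also make at rest, and its change was the smallest of the activation genes. It measured 5.17, 3.86, 4.88, 4.89 and 4.41 CPM in controls and 8.85, 6.88, 8.69 and 7.03 CPM in the OGT-deficient group. The groups did not overlap, and OGT-deficient 1 and 3 were the high libraries for Des as they were for Acta2. The rise was 1.70-fold (95% interval 1.39 to 2.07, log2 fold change 0.76, standard error 0.13 and adjusted p = 0.000309). Other genes cover 5.86% of the exonic bases of Des and 5.43% of those of Tagln.

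Pdgfrb (chromosome 18, 61045150 to 61085061, plus strand) encodes the receptor for PDGF-B and PDGF-D, the main mitogen receptor of activated stellate cells and also a receptor of pericytes. It measured 15.1, 9.01, 12.7, 4.79 and 7.63 CPM in controls and 34.7, 30.1, 35.8 and 26.3 CPM in the OGT-deficient group. The WT libraries differed among themselves more than the OGT-deficient ones, with a coefficient of variation of 41.6% against 13.8%, and WT 1 was the highest control and WT 4 the lowest. The rise was 3.20-fold (95% interval 2.20 to 4.64, log2 fold change 1.68, standard error 0.25 and adjusted p = 8.55e-05).

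Pdgfra (chromosome 5, 75152292 to 75198215, plus strand) encodes the alpha chain of the PDGF receptor, found on mesenchymal cells at large. It measured 5.255, 4.305, 7.71, 4.09 and 4.11 CPM in controls and 18.1, 12.5, 12.3 and 15.5 CPM in the OGT-deficient group. All OGT-deficient libraries exceeded WT 3, the highest control, and the rise was 2.86-fold (95% interval 2.14 to 3.82, log2 fold change 1.52, standard error 0.19 and adjusted p = 2.51e-05). The level of Pdgfrb relative to Pdgfra, each per kilobase of its longest transcript, was 1.47 to 3.63 in controls, which overlaps the 2.13 to 3.67 of the OGT-deficient libraries.

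Dcn (chromosome 10, 97479609 to 97518143, plus strand) encodes decorin, a small proteoglycan that binds collagen fibrils and transforming growth factor beta. It measured 103.4, 115.2, 125.8, 77.5 and 96.5 CPM in controls and 195.0, 158.9, 148.0 and 191.0 CPM in the OGT-deficient group. The groups were separate by a narrower margin than for the receptors. The rise was 1.67-fold (95% interval 1.37 to 2.04, log2 fold change 0.74, standard error 0.13 and adjusted p = 0.000404).

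Among the quiescence genes Cygb changed most. It lies on chromosome 11 (116645595 to 116654313, minus strand) and encodes cytoglobin, an oxygen-binding globin that stellate cells make in the resting state. It measured 10.3, 9.12, 13.4, 9.29 and 9.72 CPM in controls and 46.3, 24.6, 29.8 and 27.9 CPM in the OGT-deficient group. OGT-deficient 1 was the highest library by a wide margin, and the lowest OGT-deficient library still exceeded every control. The rise was 3.10-fold (95% interval 2.39 to 4.04, log2 fold change 1.63, standard error 0.17 and adjusted p = 5.97e-06), and without OGT-deficient 1 the log2 fold change was 1.39. Its size was thus in the range of the activation genes Tagln and Pdgfrb and not of the other quiescence genes.

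Reln (chromosome 5, 21884454 to 22344702, minus strand) encodes reelin, a large secreted glycoprotein that marks stellate cells in liver. It measured 78.3, 52.4, 80.5, 52.2 and 54.6 CPM in controls and 99.6, 122.3, 99.8 and 105.4 CPM in the OGT-deficient group. WT 1 and WT 3 stood above the other controls but below every OGT-deficient library. The rise was 1.68-fold (95% interval 1.35 to 2.08, log2 fold change 0.75, standard error 0.14 and adjusted p = 0.000645).

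Hand2 (chromosome 8, 57320983 to 57324633, plus strand) encodes a basic helix-loop-helix transcription factor of the stellate and fibroblast lineage. It measured 8.14, 9.58, 9.145, 7.94 and 8.76 CPM in controls and 14.2, 11.4, 10.7 and 15.5 CPM in the OGT-deficient group. Its controls were the tightest of the 10 genes, with a coefficient of variation of 7.83%, and the groups did not overlap. The rise was 1.49-fold (95% interval 1.23 to 1.79, log2 fold change 0.57, standard error 0.12 and adjusted p = 0.00147).

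Lrat (chromosome 3, 82892579 to 82903973, minus strand) encodes lecithin retinol acyltransferase, which esterifies vitamin A for storage. It measured 25.3, 21.9, 23.3, 16.02 and 20.9 CPM in controls and 24.0, 24.5, 18.6 and 30.7 CPM in the OGT-deficient group. The groups overlapped, and the lowest library of all was the control WT 4. The means of 21.5 ± 3.46 CPM (SD, n = 5) and 24.5 ± 4.92 CPM (SD, n = 4) gave a ratio of 1.14 with a 95% interval of 0.911 to 1.42 (log2 change 0.18, standard error 0.15 and adjusted p = 0.294 by the quasi-likelihood test of edgeR, 0.0894 to 0.847 over the alternatives). A fall to below 0.911 of the control level or a rise above 1.42 times it lay outside the interval, and a change of the size seen for Cygb or Acta2 did too.

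**Figure D2:**
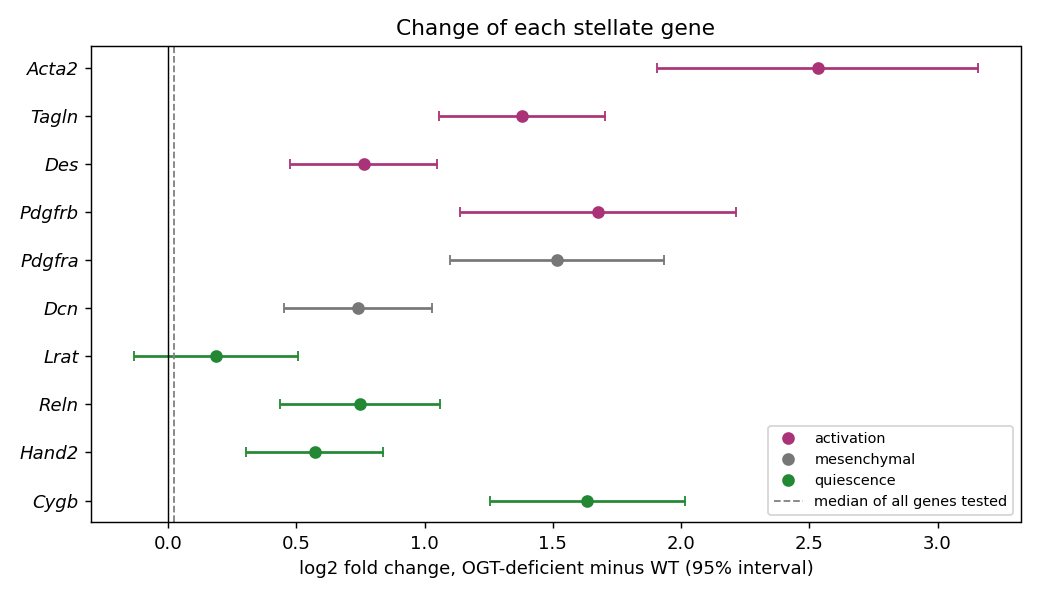
Log2 fold change, OGT-deficient minus WT, of each gene with its 95% interval, coloured by set, and the median of all tested genes as a dashed line. Acta2 is at 2.53 and Lrat at 0.18, and Cygb (1.63) stands among the activation genes while Des (0.76) stands beside Reln (0.75) and Hand2 (0.57).

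The contrast of the sets was then read within each library, where the scaling of the library nearly cancels. The mean log2 CPM of the 4 activation genes minus that of the 4 quiescence genes was -1.51, -1.80, -1.95, -2.25 and -1.97 in the controls WT 1 to 5. In OGT-deficient 1 to 4 it was -0.996, -1.18, -0.65 and -1.31. The difference was less negative in every OGT-deficient library than in any control. Its mean was -1.89 ± 0.27 (SD, n = 5) in WT and -1.03 ± 0.29 (SD, n = 4) in OGT-deficient liver, so the activation genes gained 0.86 on the log2 scale over the quiescence genes. The quiescence mean itself went from 4.22 ± 0.18 to 4.99 ± 0.16 log2 CPM and the activation mean from 2.32 ± 0.41 to 3.96 ± 0.22. No p is given for these means, because the genes were chosen with earlier results of these data known.

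**Figure D3:**
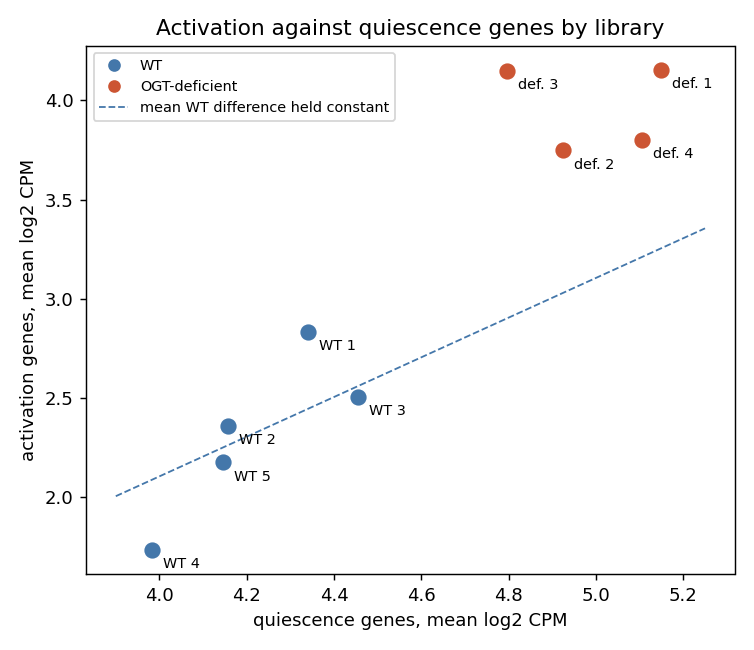
Mean log2 CPM of the activation genes (vertical) against that of the quiescence genes (horizontal), 1 point per library, with OGT-deficient libraries written "def." and a dashed line at the mean WT difference of -1.89. Both means are higher in the 4 OGT-deficient libraries, and these libraries lie above the line.

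Levels relative to Lrat, which did not pass the test, were taken within each library. Acta2 per kilobase of its longest transcript was 0.102 to 0.278 of the Lrat level in WT and 0.630 to 1.49 of it in OGT-deficient liver, a mean ratio 5.70 times as high. Tagln was 1.40 to 1.85 times Lrat in WT and 2.92 to 5.36 times in OGT-deficient liver, and Pdgfrb was 0.295 to 0.590 against 0.846 to 1.89. Cygb, a quiescence gene, was 0.938 to 1.33 times Lrat in WT and 2.09 to 4.42 times in OGT-deficient liver. The groups were separate for these 4 genes. They overlapped for Reln (1.10 to 1.58 in WT, 1.57 to 2.45 in OGT-deficient liver), for Hand2 (0.732 to 1.13 and 1.06 to 1.35) and for Des (0.312 to 0.539 and 0.405 to 0.824). The contractile genes were also unequal among themselves, since Acta2 was 0.190 to 0.769 of Des in WT and 1.56 to 1.83 times Des in OGT-deficient liver.

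**Figure D4:**
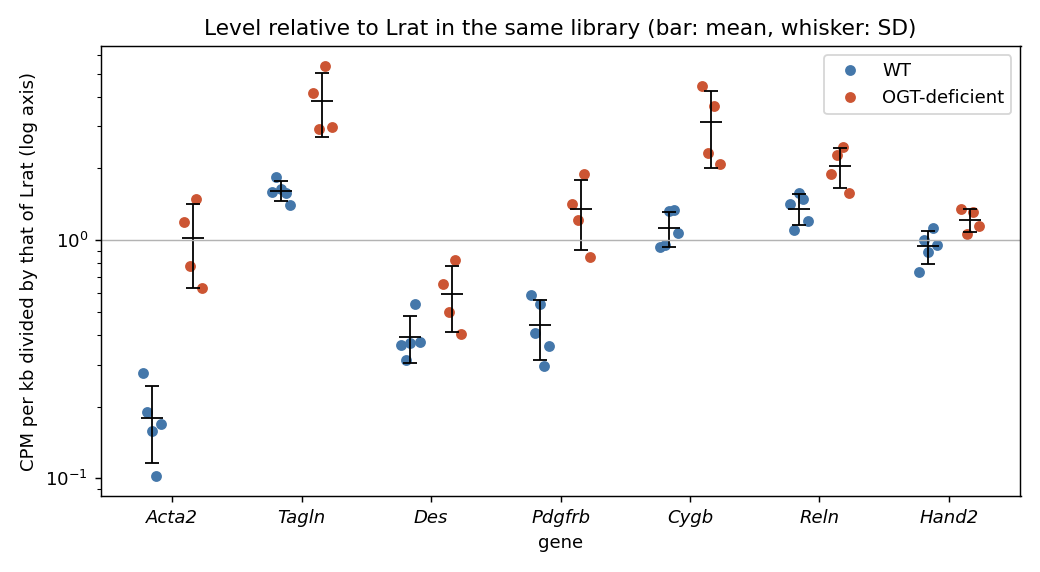
CPM per kilobase of each gene divided by that of Lrat in the same library (log axis), with group mean and SD. WT and OGT-deficient libraries are separate for Acta2, Tagln, Pdgfrb and Cygb and overlap for Des, Reln and Hand2.

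Levels between genes were compared as CPM per kilobase of the longest GENCODE transcript. In WT liver the order of mean levels was Dcn (22.1 ± 3.93), Tagln (6.48 ± 1.30), Reln (5.44 ± 1.24), Cygb (4.45 ± 0.745), Lrat (4.01 ± 0.647), Hand2 (3.71 ± 0.290), Pdgfrb (1.82 ± 0.757), Des (1.53 ± 0.170), Acta2 (0.748 ± 0.362) and Pdgfra (0.746 ± 0.225). Among neighbours in this order, only Dcn and Tagln, Hand2 and Pdgfrb, and Des and Acta2 differed by more than the larger of their SDs. In OGT-deficient liver the order was Dcn (36.9 ± 4.97), Tagln (16.9 ± 2.49), Cygb (13.8 ± 4.14), Reln (9.13 ± 0.912), Pdgfrb (5.85 ± 0.804), Hand2 (5.51 ± 0.967), Lrat (4.57 ± 0.920), Acta2 (4.43 ± 0.973), Des (2.60 ± 0.348) and Pdgfra (2.13 ± 0.404). Here Dcn and Tagln, Cygb and Reln, Reln and Pdgfrb, Acta2 and Des, and Des and Pdgfra differed by more than the larger SD, and the other neighbours did not. Acta2 was below Lrat in every WT library, and within 1 SD of it in the OGT-deficient mean. With the length of all annotated exons together in place of the longest transcript, Reln moved from place 3 to place 6 in WT and from 4 to 7 in OGT-deficient liver.

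The libraries kept a loose order across the genes. WT 4, the shallowest library, held the lowest WT value for 8 of the 10 genes, and the part of depth in this was not tested. WT 1 and WT 3 held the highest for 4 genes each, and WT 2 for the remaining 2. Among OGT-deficient libraries, library 1 was the highest for 5 genes, including Acta2, Des and Cygb. Library 3 was the lowest of its group for 4 genes, among them Lrat, Hand2 and Dcn, while having the highest Tagln and Pdgfrb. After subtraction of each group's mean log2 CPM, the genes most like Acta2 over the 9 libraries, of 11807 compared, were Nt5e (Pearson r = 0.98, Spearman rho = 0.93), Fut8 (r = 0.98, rho = 0.92) and Lpl (r = 0.97, rho = 0.83). Without the 2 libraries farthest from the median these r were 0.88, 0.87 and 0.85. The genes most like Lrat were Xlr3a (r = 0.98, rho = 0.98), Gpr19 (r = 0.94, rho = 0.72) and Sesn2 (r = 0.93, rho = 0.85). Without the 2 farthest libraries their r were 0.97, 0.80 and 0.92. Those most like Dcn were Cmtr2 (r = 0.97, rho = 0.93), Cisd3 (r = 0.95, rho = 0.97) and Tmem47 (r = 0.95, rho = 0.88). Here the r without the 2 farthest were 0.96, 0.88 and 0.86. The genes named have the highest r of many over 9 libraries that share depth and scaling. Their values are given as a description without p.

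Other genes of stellate identity moved in both directions. Of 20 such genes 9 rose and 1 fell, with a median log2 change of 0.45. Rgs5, a regulator of G protein signalling found in pericytes, rose by 1.07 on the log2 scale, the endothelin B receptor gene Ednrb by 1.06 and the lineage transcription factor gene Tcf21 by 1.04. Hgf, the hepatocyte growth factor gene which was named after its values were seen, rose by 0.72.

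Vitamin A handling genes moved in both directions. Of 17 tested genes of the list 6 rose and 8 fell, with a median log2 change of -0.40, against 0.02 over all tested genes. Rbp4, which encodes the plasma retinol carrier made by hepatocytes, went from 3592 ± 310.3 to 2011 ± 176.4 CPM (log2 change -0.84, standard error 0.11). The retinal reductase genes Rdh11 and Dhrs3 fell by 1.40 and 0.85, and Cyp26a1, which encodes a retinoic acid hydroxylase and was named after its values were seen, fell by 1.29. Aldh1a2, which encodes an enzyme that makes retinoic acid, rose from 0.119 ± 0.100 to 3.73 ± 1.64 CPM (log2 change 5.03 with SE 0.49, or 5.66 when WT 3 is left out), on 1 to 10 counts per WT library. Rbp4 and several others of the list are chiefly hepatocyte genes, and 7 of 10 hepatocyte markers fell in the same libraries. The part of hepatocytes in the vitamin A list was not tested.

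Contractile genes and the SRF pathway mostly rose. Of 18 tested genes 13 rose and 3 fell (median log2 fold change 0.65). The tropomyosin genes Tpm1 and Tpm4 rose by 1.56 and 1.35, the filamin gene Flna by 1.51 and the vimentin gene Vim, which many non-parenchymal cells share, by 1.42. The genes that fell, named after their values were seen, were Srf itself (24.1 ± 3.61 to 15.7 ± 1.54 CPM, log2 fold change -0.61, standard error 0.12 and adjusted p = 0.000584), the myosin kinase gene Mylk (-0.37) and the calponin gene Cnn3 (-0.31). Mylk and Cnn3 were not called with upper-quartile scaling (adjusted p = 0.0557 and 0.0869). Cnn1, a gene of mature smooth muscle, was too low to be tested, with a mean of 0.0773 CPM in controls and 0.181 CPM in the OGT-deficient group.

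All 4 PDGF ligand genes rose alongside the receptors. Pdgfb, which encodes the main ligand of the beta receptor, went from 1.85 ± 0.516 to 5.52 ± 1.29 CPM (log2 change 1.57, standard error 0.23 and adjusted p = 7.41e-05). Pdgfd rose by 1.60, Pdgfc by 1.54 and Pdgfa by 1.04 on the log2 scale.

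Matrix genes rose in 2 further lists. Of 7 tested small leucine-rich proteoglycan genes, the family of Dcn, 6 rose and 0 fell (median log2 fold change 0.99). Lum (lumican) rose by 1.93, Fmod (fibromodulin) by 1.29, Ogn (osteoglycin) by 1.12 and Bgn (biglycan) by 0.99, against 0.74 for Dcn. Podn and Prelp rose by 0.46 each, and Omd, at 0.36, did not pass the test (these 3 were named after their values were seen). Of 16 myofibroblast matrix genes 15 rose (median 2.28), among them Timp1, which encodes an inhibitor of matrix proteases, by 3.51, the collagen VI gene Col6a3 by 3.03, the fibrillin gene Fbn1 by 2.38 and the osteopontin gene Spp1, which is also a cholangiocyte marker, by 2.18. Fn1, named after its values were seen, which encodes fibronectin and is also made by hepatocytes, fell from 2872 ± 477.5 to 1732 ± 335.1 CPM (log2 change -0.73, standard error 0.15). Differences between these lists and the 10 genes were not tested.

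**Figure D5:**
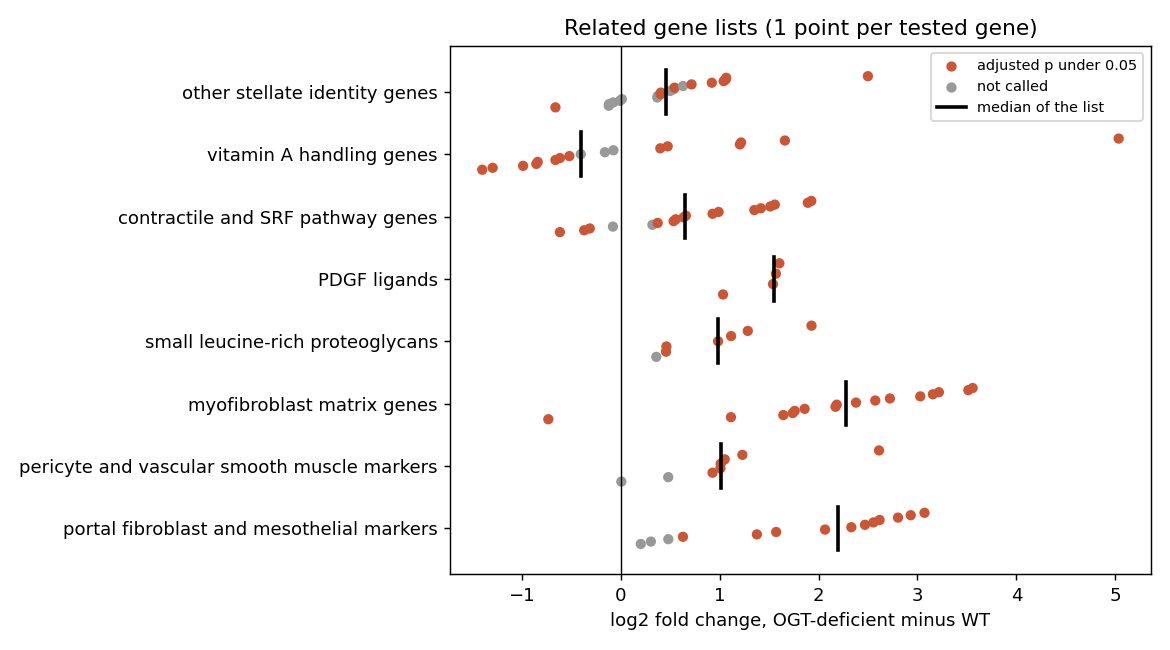
Log2 fold change of each tested gene in 8 related lists, orange where adjusted p was under 0.05, with the list median as a black bar. Medians run from -0.40 for vitamin A handling genes to 2.28 for myofibroblast matrix genes.

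Several of the 10 genes are also made by other mesenchymal cells, whose markers moved in the same libraries. Of 8 tested pericyte and vascular smooth muscle markers 6 rose and 0 fell, among them Abcc9 (log2 change 1.05), Mcam (1.01), Kcnj8 (1.01) and Notch3 (1.23), and the summed level of the list was 32.0 to 47.4 CPM in controls and 73.0 to 88.0 CPM in the OGT-deficient group. Of 14 portal fibroblast and mesothelial markers 11 rose and 0 fell, among them Fbln1 (2.80), Mfap4 (2.56), Cd34 (2.47) and Dpt (2.33), with a summed level of 16.4 to 63.0 CPM in controls and 160.0 to 225.4 CPM in the OGT-deficient group. The other 3 of the list, the mesothelial markers Msln (0.48), Upk3b (0.31) and Wt1 (0.20), named after their values were seen, did not pass the test, and their groups overlapped. No gene of these lists was at 0 in all libraries. The part of these cells in the levels of the 10 genes was not tested.

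Markers of other liver cells were also read. Hepatocyte markers, abundant in every library as the tissue label has it, summed to 108645 to 133525 CPM in controls and 57487 to 72858 CPM in the OGT-deficient group. The largest part of these sums was Alb, with means of 73880 and 33491 CPM. Of the 10 markers 7 were lower and 1 higher (Alb -1.14, Apoa1 -1.18 on the log2 scale). Cyp3a11 rose by 0.68, and Pck1 (-0.04) and G6pc (0.23) did not pass the test, all named after their values were seen. Of 9 tested cholangiocyte markers 8 rose and 1 fell, with sums of 49.5 to 79.4 CPM and 159.0 to 271.2 CPM. The largest part of these sums was Spp1, with means of 34.5 CPM in controls and 157.0 CPM in the OGT-deficient group. Recruited macrophage markers (8 of 10 higher, 0 lower) summed to 86.4 to 118.7 CPM and 339.0 to 485.5 CPM. Most of that gain came from Cd63 (means 10.8 and 207.0 CPM) and Cd9 (16.8 and 71.7 CPM). Lyz2 (66.9 and 74.2 CPM) and Ly6c2 (0.935 and 1.48 CPM), named after their values were seen, did not pass the test. Endothelial markers (1 of 10 higher, 4 lower) summed to 418.2 to 575.4 CPM and 271.1 to 494.1 CPM, and Kupffer cell markers (3 of 10 higher, 2 lower) to 756.6 to 1017 CPM and 639.8 to 1073 CPM. Both sums overlapped between the groups, and 5 of 10 genes were called in each list, against 61.1% of all tested genes. Of the endothelial genes called lower Oit3 lost its call in 5 and Gpr182 in 7 of 16 alternatives. Of the Kupffer cell genes called higher C1qa lost its call in 5 and Marco in 1. C1qb, also called higher, and Stab2, an endothelial gene called lower, were not followed through the alternatives. Their adjusted p was 0.0446 and 0.0369 by the quasi-likelihood test of edgeR, and both were named after their values were seen. The endothelial genes Clec4g (log2 change -0.59) and Vwf (1.06) kept their call in all 16. So did the Kupffer cell genes Cd163 (-0.94) and Slc40a1 (-0.49). No marker of these 5 lists was at 0 in all libraries, and their part in the stellate gene levels was not tested.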

How the data were processed

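RNA from whole liver was analysed in 9 libraries, 5 WT and 4 OGT-deficient, grouped by their titles. Tools named in the submitters' processing notes are TopHat2 2.1.0, HTSeq 0.9.1 and the build mm10 (GRCm38). The authors deposited whole-number read counts per gene symbol, not normalized, with 5 summary lines that entered neither library sizes nor tests (reads outside genes were 8.95 to 10.7% and reads in several genes 1.78 to 2.17% of these and the assigned reads together). For annotation release and strand setting, the value is not given in the sources used here.

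Counts were fitted for all genes in R 4.3.3 with edgeR 4.0.16 (filterByExpr, TMM, quasi-likelihood F test on group, prior count 0.125), with Benjamini-Hochberg adjustment over 14104 genes and a threshold of 0.05. Intervals are 95% intervals of that fit. Log2 CPM used a prior count of 2. The fit was tested on simulated data. In 16 within-group pairs of libraries the chi-square statistic was 23.9 to 135.0 per degree of freedom, so none was treated as a duplicate.

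Genes were named by a rule: the 10 members, and of each of 13 further lists the up to 4 called genes with the smallest p (where fewer were called, uncalled genes of high CPM), and the 3 genes most like Acta2, Lrat and Dcn. Others are marked in the text, and the values of some named genes are not reported here. The members and lists were chosen with earlier results of these data known. Coordinates and lengths come from GENCODE M21 (GRCm38), promoters from RefSeq. Alternatives were DESeq2 1.42.0 size factors and its Wald test, upper-quartile scaling, 2 other filters, limma 3.58.1 voom, a replicate block, and leaving out each library. For the contrast of the sets they were a prior count of 0.5, summed levels per kilobase, unscaled library sizes and leaving out each library.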

Additional observations from a re-analysis of the deposited data

Results flagged for a closer look

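A single value stood apart from the rest of its group. Cygb in WT 3, at 13.4 CPM against 9.12 to 10.3 CPM in the other 4 controls, had a gap to its nearest neighbour of 0.711 of the group's range, just above the limit of 0.71 for 5 libraries. The limit was applied to 22 groups of values, and chance alone passes it in about 1 group in 20.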

How the results depend on the processing

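The call of 9 genes higher and 0 lower held under all 16 alternatives to the test, with each of the 10 genes on the same side of the threshold in all of them. Acta2 ranged from 2.35 to 2.84 on the log2 scale, Cygb from 1.39 to 1.76, Hand2 from 0.45 to 0.69 and Lrat from 0.03 to 0.30. The number of all genes called was 8614, and 7869 to 8985 over the alternatives. Upper-quartile scaling shifted the median over all genes (log2) from 0.02 to 0.14 and the calls at 5435 higher and 3259 lower in place of 4461 and 4153. The activation minus quiescence difference of 0.86 was 0.60 with summed levels per kilobase, 0.87 with a prior count of 0.5 and 0.86 without scaling, and 0.73 to 0.96 with a library left out. Same-numbered libraries of the groups are linked by number only (correlation of their deviations -0.10 to 0.10, and WT 1 was closest to OGT-deficient 3). With the replicate block 7869 genes and the same count of 9 members were called. Among the 73 genes followed one by one through the alternatives, Oit3, Gpr182, Marco, C1qa, Mylk and Cnn3 lost their call under 1 or more. There were 20 losses in all (none of them of the 10 genes), and the causes were not tested. Acta2 rested on 18 to 125 counts per WT library, the fewest of the 10 genes, which limits the precision of its fold change.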
